A study of Mus musculus with 12 samples.

Results

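The constructs described here jointly targeted Pdcd1, Ctla4 and Adora2a in a pooled guide screen of mouse CD8+ T cells. A construct was a member when the target names in its identifier included all 3 genes, alone or with 1 of Tigit, Btla and Havcr2. This rule, which uses no measured value, kept 24 of the 689 constructs analysed, in 4 combinations of 6 constructs each. The study compared 2 conditions, each with 3 replicates. The starting reference (SR) was a frozen portion of C57BL/6 CD8+ T cells that had been stimulated ex vivo and transduced with the lentiviral library. The tumour-infiltrating lymphocytes (TIL) were cells of the same transduced kind, of which 10000000 per recipient were injected intravenously on day 12 after tumour inoculation. They were sorted from the tumours as CD8+mKate2+ cells on day 7 after the injection. Cells of 3 to 4 recipients were pooled into a TIL replicate, so no value belongs to a single mouse, and the TIL DNA was extracted together with human Raji carrier cells, 50 for each T cell. Both conditions carried the library, and between 5 and 10% of the transferred cells were mKate2+. The labels used here describe neither the nuclease nor the tumour, and the deposited workbook bears the name of Hepa1-6, a mouse hepatoma line. Whether the guides cut their genes was not analysed here. The labels do not say whether replicates came from separate cultures, so p-values measure the spread between these samples, which may be partly technical.

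Pdcd1 encodes PD-1 and Ctla4 encodes CTLA-4, inhibitory receptors that T cells display after activation and that are targets of cancer immunotherapy. PD-1 signals on binding its ligands on other cells, whereas CTLA-4 competes with the co-stimulatory receptor CD28 for shared ligands. Adora2a encodes an adenosine receptor, a G protein-coupled receptor through which adenosine, often abundant in tumours, restrains T cells. Tigit, Btla and Havcr2, which encodes TIM-3, are further inhibitory receptors. In such a screen the integrated guide cassette serves as a barcode, and its abundance stands for the abundance of the cells that carry it.

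A construct held 4 guides in tandem. In the 6 constructs of Adora2a+Ctla4+Pdcd1 the last position held a non-targeting guide, and in the 18 members with 4 genes it held a targeting guide. The library had 9 spacers for each of the 3 core genes, and the members used all of them, so that members share spacers with each other and with other constructs. The spacers below, each 20 bases long, were copied from the construct identifiers and are written 5′ to 3′. They are those of Adora2a+Ctla4+Pdcd1, those of the Tigit member most abundant in TIL 1 and TIL 2 and of the member seen in every TIL replicate, and a pair of Pdcd1 spacers used for comparison. Capitals mark bases shared, on either strand, with another spacer of the same gene in the library over a run of at least 12 bases.
Pdcd1 spacer 1: aGATCATACAGCTGCCCAAC
Pdcd1 spacer 2: caatacagggatacccacta
Pdcd1 spacer 3: cagcttgtccaactggtcgg
Pdcd1 spacer 5: ctgcagttgagctggcaatc
Pdcd1 spacer 6: gctcaaaccattacagaagg
Pdcd1 spacer 7: tctgggcatgtgggtccggc
Pdcd1 spacer 9: tGTTGGGCAGCTGTATGATC
Ctla4 spacer 1: acacaacactgatgaggtcc
Ctla4 spacer 3: acatagacccctgttgtaag
Ctla4 spacer 6: ctgctagccaacaccactga
Ctla4 spacer 7: ggactgagagctgttgacac
Ctla4 spacer 8: tgcccacaaagtatggcggt
Ctla4 spacer 9: tgtgatggtgaatattcaca
Adora2a spacer 2: agcacacaagcacgttaccc
Adora2a spacer 3: CAAAGACCTGCGGCGagggc
Adora2a spacer 4: caacttcttcgtggtatctc
Adora2a spacer 7: ctccaCAAAGACCTGCGGCG
Adora2a spacer 8: ggagagccaacccctaccag
Adora2a spacer 9: tgtcgatggcaatagccaag
Havcr2 spacer 6: gaggcggtcaggatggctgc
Tigit spacer 3: CCCACCAGGATACGTATGAT
Pdcd1 spacers 1 and 9 share 19 bases on opposite strands, and Adora2a spacers 3 and 7 share 15 bases on the same strand, so each pair addresses overlapping DNA. The labels and files name no genome build, and no coordinates are printed for the target sites.

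Each replicate was read over 2 regions of the cassette, region 1 with the guides at positions 1 and 2 and region 2 with those at positions 2 and 3, and the guide at position 4 was not read. The deposited values are reads scaled by an unstated factor per library and rounded, called scaled reads here. Library totals ran from 8288404 to 25646820 scaled reads. Each value was rescaled to a library total of 1000000 (CPM), and the regions were averaged. The middle construct of a TIL library had between 0 and 5 scaled reads, and between 107 and 545 of the 689 constructs were at 0. Over the 689 constructs the TIL-to-SR change of replicates 1 and 2 correlated with r = 0.41, and that of replicate 3 with r = -0.00093 and 0.057 to replicates 1 and 2. SR was read by direct PCR and TIL by a PCR in 2 steps, so amplification cannot be told apart from condition. Detection in TIL meant more than 1000 scaled reads in each region, a threshold set with the data known.

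Each of the 6 Adora2a+Ctla4+Pdcd1 constructs was detected in at least 1 TIL replicate, 4 of them in 2 replicates and none in all 3. Of the library, 26.3% were detected at least once and 7.11% in at least 2 replicates. Construct 1, with Adora2a spacer 2, Ctla4 spacer 7 and Pdcd1 spacer 7, had 3239, 3356 and 3259 CPM in SR 1, 2 and 3 and 10667, 0.29 and 10443 CPM in TIL 1, 2 and 3. It lay 3.29-fold and 3.20-fold above SR in replicates 1 and 3 and near 0 in replicate 2. Construct 2, with Adora2a spacer 3, Ctla4 spacer 3 and Pdcd1 spacer 3, had 1511, 1782 and 1540 CPM in SR and 24933, 3313 and 0.044 CPM in TIL. TIL 1 and TIL 2 were above every SR value, by 16.5-fold and 1.86-fold within replicates, and TIL 3 was below all of them. Construct 3, with Ctla4 spacer 1, Pdcd1 spacer 5 and Adora2a spacer 7, had 904, 788 and 949 CPM in SR and 6223, 5.94 and 0.066 CPM in TIL. It was abundant in TIL 1 only, at 6.88-fold its SR level. Construct 4, with Ctla4 spacer 3, Pdcd1 spacer 5 and Adora2a spacer 4, had 1366, 1646 and 1467 CPM in SR and 0.29, 36190 and 23055 CPM in TIL. Here TIL 1 was near 0, and TIL 2 and TIL 3 stood at 22.0-fold and 15.7-fold the SR level. Construct 5, with Pdcd1 spacer 9, Adora2a spacer 9 and Ctla4 spacer 7, had 3142, 3029 and 3027 CPM in SR and 26277, 11962 and 0.11 CPM in TIL. Its TIL levels in replicates 1 and 2 were 8.36-fold and 3.95-fold those of SR. Construct 6, with Pdcd1 spacer 2, Ctla4 spacer 8 and Adora2a spacer 9, had 1296, 1679 and 1261 CPM in SR and 0.12, 42194 and 5786 CPM in TIL. Its TIL 2 level, 25.1-fold that of SR, made it the construct of rank 2 in that replicate. In every construct the SR and TIL values did not interleave: a TIL value lay either above all SR values or below all of them.

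The regions disagreed for 1 of these values. Construct 6 had 262944 scaled reads in region 1 of TIL 3 and 0 in region 2, and was therefore not counted as detected there. This was the only member value above the threshold in 1 region alone. Over the whole library 16 constructs in TIL 3 exceeded the threshold in region 1 only, 11 of them with 0 in region 2, and 18 in region 2 only.

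As a combination, Adora2a+Ctla4+Pdcd1 had a higher TIL-to-SR ratio than the non-targeting constructs. The value of a combination is the mean log2(CPM + 1) of its constructs minus that of the 84 non-targeting constructs in the same sample, compared between TIL and SR. In SR it was 1.06, 1.47 and 1.36, and in TIL it was 8.27, 9.30 and 5.07 in replicates 1, 2 and 3, so the conditions did not overlap. The change was 6.25 ± 1.03 on the log2 scale (SE, n = 3; limma, Benjamini-Hochberg adjusted p = 0.0387 over 101 combinations). It was the highest of the 101 combinations and the only one that passed, 0.99% of those tested, while 72 combinations lay above 0. The non-targeting constructs themselves changed by -8.65, -8.86 and -7.69 log2 units in the 3 replicates, and 5, 2 and 9 of the 84 were detected. The 6 constructs took 1.15, 1.23 and 1.15% of the reads of SR 1, 2 and 3 and 6.81, 9.37 and 3.93% of those of TIL 1, 2 and 3. The call was lost without replicate 1 (5.77, limma adjusted p = 0.331), without replicate 2 (5.46, limma adjusted p = 0.202) and with region 2 alone (5.43, limma adjusted p = 0.185), and was also lost with a robust variance prior or when centred on all constructs. With the median over constructs in place of the mean, the value was 9.57 (limma adjusted p = 0.0135), and with a pseudocount of 10 CPM it was 4.45 (limma adjusted p = 0.0427). The test takes the spread between replicates as its error and not the spread between the 6 constructs, whose means over replicates ran from 3.78 to 7.86.

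The sets with 1 or 2 of the same genes had lower values. Pdcd1 alone had 3.10, 5.34 and -0.58 in replicates 1, 2 and 3, Ctla4 alone -0.71, 0.010 and 2.71, and Adora2a alone 0.88, 1.43 and -0.043. Pdcd1 was thus high in replicates 1 and 2 and Ctla4 in replicate 3. The pair Ctla4+Pdcd1 had -0.99, -0.77 and 2.77, Adora2a+Pdcd1 0.73, 1.26 and 1.14, and Adora2a+Ctla4 0.89, -0.92 and -0.18. The 3-gene set, at 7.22 and 7.82, exceeded every one of these in replicates 1 and 2. At 3.71 it also did so in replicate 3, but that value includes construct 6 at 5786 CPM in TIL 3. These reads came from region 1 alone, with 0 in region 2, and the order against Ctla4 and Ctla4+Pdcd1 in replicate 3 depends on them. The single-gene values added up to 3.27, 6.78 and 2.08 in the 3 replicates, below the value of the set each time. This sum is a description on a scale that is compressed for undetected constructs, and no test was made of it. Neither replicate 3 comparison was made without the region 1 value of construct 6, so no conclusion on replicate 3 is drawn from them.

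All 150 pairs of checkpoint combinations that differ by 1 gene were tested for a difference. The pairs share combinations and are not independent. The larger and the smaller set of a pair are different constructs, and the difference is called an addition for short. Its error is again the spread between replicates and not the spread between constructs. Adding Pdcd1 to Adora2a+Ctla4 gave a difference of 6.32, 8.74 and 3.89 in replicates 1, 2 and 3, with a mean of 6.32 ± 1.24 (SE, n = 3; limma adjusted p = 0.10). Adding Ctla4 to Adora2a+Pdcd1 gave 6.49, 6.56 and 2.57, with a mean of 5.20 ± 1.18 (SE, n = 3; limma adjusted p = 0.125). Adding Adora2a to Ctla4+Pdcd1 gave 8.21, 8.59 and 0.94, with a mean of 5.91 ± 2.05 (SE, n = 3; limma adjusted p = 0.224). In replicate 3 all 3 include the value of construct 6, which came from region 1 alone. The sign of the 0.94 for Adora2a depends on that value, and it was not recomputed without it. With that value included, all 3 differences were above 0 in each replicate, and none passed after adjustment. They were the highest differences of the 150 pairs, of which the other 135 without a member as the larger set ran from -3.46 to 4.12. Without replicate 3 all 3 passed (8.40, 6.52 and 7.53 for the addition of Adora2a, Ctla4 and Pdcd1, limma adjusted p = 0.0194, 0.0194 and 0.0490), where 4% of the 150 pairs were called higher. They also passed with the median over constructs (9.84, 10.49 and 10.27, limma adjusted p = 0.0295, 0.0229 and 0.0283), where 13.3% of the pairs were called higher. With region 1 only, the additions of Ctla4 and Pdcd1 passed (limma adjusted p = 0.00841 and 0.0486). Other settings went the other way. Without replicate 1, without replicate 2 and with region 2 only, the limma adjusted p was 0.553, 0.501 and 0.465 for Adora2a. For Ctla4 it was 0.348, 0.363 and 0.361. The highest limma adjusted p for Pdcd1 in any alternative was 0.335.

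The sets with Btla or Tigit as a further gene had a lower value than Adora2a+Ctla4+Pdcd1. Their constructs carried partly other spacers for the core genes, at partly other positions. The further gene therefore cannot be told apart from the choice of spacers. With Tigit the difference from the 3-gene set was -5.16, -5.16 and -4.66 in replicates 1, 2 and 3, or -4.99 ± 0.60 (SE, n = 3; limma adjusted p = 0.0206). With Btla it was -6.85, -6.89 and -4.38, or -6.04 ± 0.83 (SE, n = 3; limma adjusted p = 0.0219). These were the only pairs of 150 that passed, 1.33% of those tested, and 0% passed in the direction of a higher value. With Havcr2 the difference was -2.30, -2.08 and -2.12, or -2.17 ± 0.54 (SE, n = 3; limma adjusted p = 0.130), below 0 in each replicate but not past the test. With the median over constructs the differences for Tigit, Btla and Havcr2 were -8.68, -9.18 and -5.34, all past the test (limma adjusted p = 0.0323, 0.0295 and 0.00532), where 13.3% of the pairs were called lower. Both calls were lost without replicate 1, without replicate 2, with region 2 alone and after adjustment for starting abundance, with limma adjusted p of 0.217, 0.335, 0.260 and 0.130 for each of them. The calls were also lost on the authors' ratios. After that adjustment, a straight-line fit whose limit is given below, the differences themselves stayed at -5.25 for Tigit and -6.36 for Btla. The 3 differences share the 3-gene set, so a high value of that set lowers all of them together. In replicate 3 that value includes construct 6, which was read in region 1 alone.

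Added to the 10 checkpoint sets of 3 genes, Tigit was below 0 in 7, Btla in 5 and Havcr2 in 8. The medians of these differences were -0.52, -0.018 and -0.52. The values for Adora2a+Ctla4+Pdcd1 were the lowest of the 10 for Tigit and for Btla, while the lowest for Havcr2 was -2.48.

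The 4-gene sets were themselves unlike each other. Adora2a+Ctla4+Havcr2+Pdcd1 had 4.91, 5.75 and 1.59 against non-targeting constructs in replicates 1, 2 and 3, a mean of 4.08 ± 1.03 (SE, n = 3; limma adjusted p = 0.153) that came next after the 3-gene set among the 101 combinations. It was above 0 in each replicate and did not pass, but passed without replicate 3 (5.33, limma adjusted p = 0.00994). Adora2a+Ctla4+Pdcd1+Tigit had 2.06, 2.67 and -0.96, a mean of 1.26 ± 0.98 (SE, n = 3; limma adjusted p = 0.568), and its replicates differed in sign. Without replicate 3 it passed (2.36, limma adjusted p = 0.0355). The share of the 101 combinations that passed without replicate 3 is not given here, so these calls do not single out the Havcr2 and Tigit sets. Single constructs called above non-targeting constructs went from 4.64% of the library to 9.58% in that setting. Adora2a+Btla+Ctla4+Pdcd1 had 0.36, 0.94 and -0.68, a mean of 0.21 ± 0.59 (SE, n = 3; limma adjusted p = 0.871). The sign of this last mean was not settled, since it was -0.95 when constructs under 200 CPM in SR were left out, -0.16 without replicate 2 and -0.41 when centred on all constructs. Of the 9 pairs in which Pdcd1, Ctla4 or Adora2a completed a 4-gene set, 6 were above 0, with a range from -3.36 to 3.08, and none passed (lowest limma adjusted p = 0.179). Pdcd1 added to Adora2a+Ctla4+Havcr2 passed without replicate 3 (5.98, limma adjusted p = 0.0194), where 4% of the 150 pairs were called higher. Adora2a added to Ctla4+Pdcd1+Tigit passed in 1 of 12 alternatives, the median over constructs (limma adjusted p = 0.0323). In that setting 13.3% of the 150 pairs were called higher.

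Among the Havcr2 members, 4 of 6 constructs were detected. Havcr2 construct 6, with Havcr2 spacer 6, Ctla4 spacer 6, Adora2a spacer 4 and Pdcd1 spacer 9, was the only member detected in all 3 TIL replicates. It had 5954, 7314 and 7045 CPM in SR and 6335, 9407 and 6301 CPM in TIL. Its levels overlapped between conditions, at 1.06-fold, 1.29-fold and 0.894-fold, and it was the most abundant member at the start. Havcr2 construct 2 had 1348, 1294 and 1256 CPM in SR and 8614, 10211 and 0.066 CPM in TIL. Havcr2 construct 4 had 1095, 758 and 807 CPM in SR and 11039, 19518 and 0 CPM in TIL. Both were above SR in replicates 1 and 2 and near or at 0 in replicate 3. Havcr2 construct 3 had 3624, 4036 and 4013 CPM in SR and 0.88, 2.29 and 3351 CPM in TIL, so it was seen in replicate 3 alone, at 0.835-fold its SR level. The remaining pair of constructs stayed at or below 0.12 CPM in TIL.

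The Tigit combination rested on a single construct. Tigit construct 6, with Tigit spacer 3, Pdcd1 spacer 7, Ctla4 spacer 9 and Adora2a spacer 8, had 1599, 635 and 692 CPM in SR and 41121, 21381 and 0.066 CPM in TIL. It held rank 2 of the library in TIL 1, at 25.7-fold its SR level, and stood at 33.7-fold in replicate 2. It made up 99.996 and 99.995% of the combination's reads in these replicates. The other 5 Tigit constructs did not exceed 1.06 CPM in any TIL replicate. The Btla combination had no detection in 18 cases, a case being 1 construct in 1 TIL replicate. A count of 0 allows a share of up to 16.7%, which is above the 11.4% of cases detected over the whole library, so a lower share than in the library was not detectable. This limit and those below cover counting error only and treat the cases as independent, although the replicates of a construct share its guides. Its 6 constructs held between 0.40 and 0.47% of the SR reads and at most 0.00042% of the TIL reads.

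Starting abundance differed between the member combinations as well. The median SR level was 1552 CPM for Adora2a+Ctla4+Pdcd1, 1093 CPM with Havcr2, 828 CPM with Btla and 623 CPM with Tigit, against 1136 CPM over all constructs. By share of the SR reads the order was another, with the Havcr2 set above the 3-gene set, at 1.30, 1.40 and 1.37% against 1.15, 1.23 and 1.15%, and the Btla set below the Tigit set. The 11 members detected at least once had between 881 and 6771 CPM in SR, and the 13 that were never detected between 31.1 and 2044 CPM, so the ranges overlapped. All 8 members in the lower 2 quintiles of SR abundance went undetected. The library as a whole was detected there in 25 of 825 cases. In the upper 3 quintiles, members were detected in 20 of 48 cases (41.7%) and the library in 211 of 1242 (17.0%). Within that range the 3-gene set had 10 of 18 cases, the Havcr2 set 8 of 12, the Tigit set 2 of 9 and the Btla set 0 of 9, where a count of 0 allows up to 33.3%. With starting abundance regressed out by a straight line over all constructs, the value of Adora2a+Ctla4+Pdcd1 was 6.44 and that of Adora2a+Ctla4+Havcr2+Pdcd1 was 4.19, both slightly above the unadjusted values. The Tigit and Btla sets, below the non-targeting mean in SR, went down to 1.19 and 0.084. Library detection rose with SR abundance, from 2.43% of cases in the lowest quintile to 24.2% in the highest. Most constructs behind the line were near 0 in TIL, so it does not remove that dependence, and no conclusion on starting abundance is drawn from it.

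Over all 24 members, 8, 8 and 4 constructs were detected in TIL 1, 2 and 3. These are 33.3% (95% Wilson interval 18.0 to 53.3%), 33.3% (18.0 to 53.3%) and 16.7% (6.68 to 35.9%), intervals that cover counting error only. The library background was 11.3, 8.85 and 14.1%. Detection at least once was seen in 11 of 24 members (45.8%) against 26.3% of the library, and detection in at least 2 replicates in 8 members against 7.11% of the library. Of these, 6 members were shared by TIL 1 and TIL 2, and 2 each by TIL 1 and TIL 3 and by TIL 2 and TIL 3. Of the library, 29, 18 and 14 constructs (4.21, 2.61 and 2.03%) were shared by these pairs. The members took 3.49, 3.46 and 3.37% of the SR reads and 13.5, 15.4 and 4.89% of the TIL reads, an increase of 3.87-fold, 4.45-fold and 1.45-fold. The mean of the members against non-targeting constructs was 2.95 ± 1.79 (SD, n = 3), with 3.64, 4.29 and 0.92 in the replicates. Their median was 0.45 ± 1.31 above the non-targeting mean (SD, n = 3), with 0.41, 1.78 and -0.84, and the median of all constructs -0.99. The mean was thus well above the median, and 13 of the 24 were never detected.

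Set beside the constructs that lack 1 of the 3 genes, the members stood higher in replicates 1 and 2 but not in replicate 3. The 42 constructs with Pdcd1 and Ctla4 but not Adora2a had means of 0.52, 0.58 and 1.38 against non-targeting constructs in replicates 1, 2 and 3. The 42 with Pdcd1 and Adora2a but not Ctla4 had 2.83, 1.83 and 0.34, and the 42 with Ctla4 and Adora2a but not Pdcd1 had 0.84, 0.86 and 0.50. In replicate 3 the members, at 0.92, were below the constructs with Pdcd1 and Ctla4 but not Adora2a. Detection was seen in 20 of 72 cases among members (27.8%), 18 of 126 with Pdcd1 and Ctla4, 22 of 126 with Pdcd1 and Adora2a and 14 of 126 with Ctla4 and Adora2a. At least 1 detection was nearly as frequent with Pdcd1 and Adora2a, in 18 of 42 constructs (42.9%), as among members (45.8%). It was seen in 14 of 42 with Pdcd1 and Ctla4 and 12 of 42 with Ctla4 and Adora2a. The median TIL-to-SR change was -6.86 for members and -6.98 with Pdcd1 and Adora2a. It was -8.41 with Pdcd1 and Ctla4 and -8.05 with Ctla4 and Adora2a. These group values were not tested, and the tests of the difference are those of the gene additions above.

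Construct by construct, 13 of the 24 members fell between SR and TIL (limma, Benjamini-Hochberg adjusted p under 0.05 over 689 constructs), where 67.8% of the library fell. No member rose, against 0.435% of the library. The fallen members were all 6 of the Btla set, 5 of the Tigit set and 2 of the Havcr2 set, and none of the 3-gene set. The median change of the members was -6.86 and that of all constructs -8.50 on the log2 scale. The 6 constructs of the 3-gene set ranged from -4.62 to -0.54, with standard errors between 3.50 and 4.43, each being abundant in some replicates and low in others. Without replicate 1, 2 or 3, respectively 1, 1 and 4 members rose, where 1.02, 1.02 and 4.06% of the library did. Relative to the non-targeting mean, 2 members were higher, where 4.64% of the library was, and 3 were lower, where 21% of the library was. The higher ones were Havcr2 construct 6 (8.50 ± 0.55; SE, n = 3; limma adjusted p = 0.00282) and Btla construct 2 (4.24 ± 0.74; SE, n = 3; limma adjusted p = 0.0280). The latter was never detected. It had 31.1 CPM in SR, the lowest of the members, so the pseudocount of 1 CPM limits how far it could fall. The lower members were Tigit constructs 3 and 5 and Btla construct 4, between -2.13 and -1.66. None of them exceeded 0.66 CPM in TIL. They had 2044, 1176 and 1229 CPM in SR, against a non-targeting median of 806 CPM. With TIL values near 0, the size of such a fall is limited by the starting level. Without replicate 3, 8 members were called higher, where 9.58% of the library was, and 1 lower, where 31.8% of the library was. Without replicate 1, limma called 0 members and 0% of the library in each direction. At an unadjusted limma p under 0.05, 4 members were higher and 0 lower, where 33 and 78 of the 689 constructs were. Without replicate 2, limma called 2 members and 9 of the 689 constructs higher, and 0 members and 0% of the library lower. At an unadjusted limma p under 0.05, 2 members were lower there, where 156 of the 689 constructs were.

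Spacers were read across members and across the remaining library, as counts of detected cases from constructs that share other guides. Pdcd1 spacer 5 was in 4 members, all detected at least once, with 6 of 12 cases, while the 15 other constructs with it had 3 of 45 (6.67%). Pdcd1 spacer 6 was in 4 members, none of them detected in 12 cases, and in 12 other constructs with 6 of 36 cases (16.7%). None of these 4 was a 3-gene construct. Pdcd1 spacer 4, not printed above, had 0 of 9 cases in its 3 members, which allow up to 33.3%. Elsewhere it had 1 of 42 (2.38%). Pdcd1 spacer 7 had 4 of 6 cases in its 2 members and 17 of 48 (35.4%) in the other 16 constructs. Ctla4 spacer 9 was in Tigit construct 6, with 2 of 3 cases, and in 16 further constructs with 0 of 48, which allow up to 6.25%. Adora2a spacer 3 had 5 of 12 cases in members and 12 of 39 (30.8%) elsewhere. Its overlapping neighbour, Adora2a spacer 7, had 1 of 9 in members and 5 of 48 (10.4%) elsewhere. The overlapping Pdcd1 spacers 1 and 9 had 2 of 9 and 5 of 9 cases in members, and 7 of 39 and 9 of 45 elsewhere. The position of Adora2a varied as well, with 7 of 24 cases at position 1, 2 of 18 at position 2, 9 of 18 at position 3 and 2 of 12 at position 4. At positions 1, 2, 3 and 4, Pdcd1 had 3 of 15, 8 of 27, 6 of 15 and 3 of 15 cases. Ctla4 had 5 of 18, 10 of 24, 4 of 18 and 1 of 12. Position and combination were not balanced, so these counts cannot be told apart from the combination.

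By the authors' threshold, a log2 ratio that reaches 1 in each region, 7, 6 and 2 members were up in replicates 1, 2 and 3, or 29.2, 25.0 and 8.33%. The library background was 8.71, 7.55 and 6.1%. The authors' deposited table counted 4, 3 and 2 of the 6 Adora2a+Ctla4+Pdcd1 constructs, 2, 2 and 0 of the Havcr2 set and 1, 1 and 0 of the Tigit set. For the Btla set the authors' deposited table counted 0 in each replicate. In the authors' deposited table the log2 enrichment of the 3-gene set was 3.02, 2.90 and 2.78 in replicates 1, 2 and 3, the highest of the combinations each time, in replicate 3 as 1 of 4 tied ones. The log2 enrichment in the authors' deposited table was 2.28 and 2.48 for the Havcr2 set and 1.69 and 1.90 for the Tigit set in replicates 1 and 2, and listed as 0 for both in replicate 3. Havcr2 construct 6, although detected in all replicates, did not reach the threshold in any, with mean log2 ratios over the regions of -0.18, 0.30 and -0.38 in the authors' deposited table.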

How the data were processed

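Members and lists were chosen with earlier results of these data known. Deposited scores are the authors' scaled reads, whole numbers from 3 tables that each pair an SR with a TIL library in 2 regions, by a factor that neither labels nor files state. SR columns carry no replicate number and were numbered by table. The submitters' processing notes name Bowtie2 without a role. The deposited log2 ratios of the authors were matched within 5e-05 by adding 10 to both values, and the authors' counts of constructs up 2-fold matched a recount in 303 of 303 cases. The deposited library has 690 constructs, and 1 was not analysed here.

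CPM was computed per library and averaged over regions. Tests used limma 3.58.1 in R 4.3.3 on log2(CPM + 1), TIL against SR, with no filter, over all 689 constructs, 101 combinations or 150 pairs; other values used pandas 2.3.3 and scipy 1.17.1. The fit was checked on simulated data. Named were all constructs of the 3-gene set and other members detected at least once; Tigit constructs 3 and 5 and Btla constructs 2 and 4 were named as calls. Alternatives varied the pseudocount, region, filter, centring, replicate, block, variance prior, starting abundance and thresholds. Depth behind the scaled reads is unknown.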

Additional observations from a re-analysis of the deposited data

How the results depend on the processing

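Values are log2 changes. Adora2a+Ctla4+Pdcd1 against non-targeting constructs stayed above 0 in every alternative run, but lost its call with region 2 only (5.43, limma adjusted p = 0.185), with a robust variance prior (6.25, limma adjusted p = 0.0594) and centred on all constructs (5.63, limma adjusted p = 0.0665), and ranged from 5.46 to 7.52 with 1 replicate left out. The Havcr2 set gained a call with the replicate block (4.08, limma adjusted p = 0.00074), on the authors' log2 ratios (4.38, limma adjusted p = 0.000141) and adjusted for starting abundance (4.19, limma adjusted p = 0.000626), fits in which limma gave every combination the same error; it ranged from 3.25 to 5.33 with 1 replicate left out. The Tigit set gained one with the median over constructs (0.89, limma adjusted p = 0.0384) and ranged from 0.55 to 2.36. The Btla set changed sign at 200 CPM or more in SR (-0.95) and centred on all constructs (-0.41), and ranged from -0.16 to 0.65. Ctla4 added to Adora2a+Pdcd1+Tigit ranged from -0.66 (without replicate 2) to 1.32. The next counts cover the 15 pairs with a member as the larger set. Additions called lower went from 2 to 0 with region 2 only, with the replicate block (limma adjusted p = 0.130 for both), on the authors' ratios and adjusted for starting abundance. They went to 3 with the median over constructs, and to between 0 and 2 with 1 replicate left out. Those called higher went from 0 to 2 with region 1 only, to 4 with the median over constructs, and to between 0 and 4 with 1 replicate left out. Over all 150 pairs the median over constructs called 13.3% lower and 13.3% higher. Without replicate 3, 4% of the 150 pairs were called higher. Members that rose from SR to TIL went from 0 to between 1 and 4 with 1 replicate left out, where the library went from 3 to between 7 and 28 of 689. Members called above non-targeting constructs went from 2 to 4 (pseudocount 10 CPM), 1 (200 CPM or more) and 0 (replicate block), and to between 0 and 8. Those called below went from 3 to 5 (pseudocount 10 CPM, or centred on all constructs), 1 (region 2 only, or robust prior) and 0 (200 CPM or more, or replicate block), and to between 0 and 1. With 1 replicate left out, library calls went from 32 to between 0 and 66 above, and from 145 to between 0 and 219 below. Library calls at the other settings are not given here, so those counts do not single out the members. Detected cases of members fell from 20 to between 12 and 16, and cases up 2-fold from 15 to between 8 and 13, partly since fewer samples enter, which holds for the library too. The mean of the members kept its side throughout. Where not stated by construction, the cause was not tested. Same-numbered SR and TIL deviations correlated with r = 0.075, -0.082 and 0.086, so the samples share only a number. Scaling to the median construct was not run, since that construct was near 0 in TIL. Most TIL values are near 0, which limits what a fold can show, and position 4 was not read.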
